A study of Homo sapiens with 12 samples.

Results

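ATP-binding cassette (ABC) transporters were examined in MDA-MB-231 cells that carried a short hairpin RNA (shRNA) against HDAC5 or LSD1, or a scramble shRNA. The genes were taken by symbol: ABCA, ABCB, ABCC, ABCD, ABCE, ABCF or ABCG followed by a number, on a probe set that the array's annotation ties to 1 symbol. This gave 34 of the 11963 genes measured. They had 54 such probe sets, and the one with the highest mean over the 12 arrays stood for its gene. The 20 further probe sets, which belong to 14 of the genes, were kept as a check. By role there were 14 lipid transporters, 8 drug and anion efflux pumps, 2 channel regulators, 4 mitochondrial or lysosomal transporters, 2 peroxisomal transporters and 4 translation factors.

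MDA-MB-231 is a human line established from triple-negative breast cancer, with mesenchymal features. HDAC5 belongs to the class IIa histone deacetylases, while LSD1, encoded by KDM1A, removes methyl groups from histone lysines. RNA was measured on Affymetrix 3′ expression arrays, 1 array per sample, in 4 groups of 3. The first experiment set HDAC5 shRNA (replicates 1, 2 and 3) against scramble shRNA (replicates 1, 2 and 3), and the second set LSD1 shRNA (replicates 1, 2 and 3) against a scramble set that carries an LSD1 tag (replicates A, B and C). The untagged scramble set was taken as the control of HDAC5 shRNA because the other set has that tag. All 4 groups were transduced with lentiviral particles and grown under the line's usual conditions, and no group of untransduced cells was analysed. The hairpin sequences, the number of hairpins per target, and whether the cells were pools or clones are details the sources used here do not give. The labels call the replicates biological without saying what separates them, so the p-values measure the spread between these samples.

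ABC proteins bind ATP on cassettes that are alike throughout the family, and most of them use it to move a substrate across a membrane. The ABCA and ABCG members handle mainly sterols and phospholipids, and the sterol exporters ABCA1 and ABCG1 are textbook targets of the oxysterol-sensing liver X receptors (LXR). ABCB1, several ABCC members and ABCG2 pump drugs and conjugated metabolites out of cells and are known in breast cancer for their part in multidrug resistance. The ABCE and ABCF proteins have no membrane domain and act on the ribosome.

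The targeted transcripts were lower in the arrays that carry their names. HDAC5 was at 7.40 ± 0.17 (log2, mean ± SD, n = 3) with scramble and 6.29 ± 0.18 with HDAC5 shRNA, and KDM1A at 9.72 ± 0.09 and 6.63 ± 0.17 in the LSD1 experiment. The HDAC5 experiment had array medians of 6.59 to 6.65 and the LSD1 experiment of 7.05 to 7.16, so values were compared within an experiment. Of 6 markers of mesenchymal MDA-MB-231 cells, 0 lay below the arrays' lower quartile in any group, and the same held for 0 of 9 luminal breast markers. Below it were 3 to 4 of 6 blood markers (PTPRC, LYZ and SPI1 in every group), 3 of 7 fibroblast or endothelial markers (LUM, VWF and CDH5) and 2 of 3 hepatocyte markers (ALB and APOB). In the scramble arrays of the HDAC5 experiment the other markers of these lists lay above it. Among them were HBB at 6.66, CD3D at 5.697, COL1A1 at 7.71, PECAM1 at 7.37, PDGFRB at 6.20 and TTR at 6.53. The luminal markers ESR1 (5.61) and FOXA1 (5.92) lay above the lower quartile but below the array medians there. The array means of the fibroblast or endothelial list were 5.13 to 5.18 with scramble and 4.89 to 4.98 with HDAC5 shRNA, and 5.44 to 5.52 and 5.65 to 5.80 in the LSD1 experiment. For the luminal list they were 8.62 to 8.67 and 8.56 to 8.58, and 8.82 to 8.93 and 8.95 to 8.99, and for the blood list 4.60 to 4.65 and 4.55 to 4.64, and 4.87 to 4.99 and 5.01 to 5.13. Single genes moved further than these list means. With LSD1 shRNA, LUM went from 2.61 to 4.15 and CD3D from 6.002 to 6.77. With HDAC5 shRNA, TFF1 went from 7.40 to 6.26 and XBP1 from 10.16 to 9.37, while EPCAM went from 7.21 to 7.88. An RNA quality measure, the gap between the 3′ and 5′ probe sets of ACTB (log2), was 0.90 ± 0.06 with scramble and 0.68 ± 0.08 with HDAC5 shRNA (exact permutation p = 0.1, two-sided, the smallest that 3 against 3 arrays can give). It was 1.30 ± 0.06 and 1.43 ± 0.12 in the LSD1 experiment (exact permutation p = 0.2). The part of these measures in the results below was not tested. In such bulk RNA, fewer cells of a kind and less RNA per cell cannot be told apart.

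With HDAC5 shRNA, the lipid transporters that changed all fell, led by ABCG1, ABCA3, ABCA8 and ABCA1, and the conjugate pump ABCC3 fell with them. The drug pump ABCG2 and the ribosome recycling factor ABCE1 rose. A gene was called changed when its adjusted p in limma was under 0.05 over all 11963 genes. By that rule 19 of the 34 ABC genes changed (55.9%), of which 7 rose (20.6%) and 12 fell (35.3%), while 44.5% of all genes changed, 21.3% rose and 23.2% fell. The scramble and HDAC5 shRNA arrays did not overlap for 20 of the 34 (58.8%), against 50.8% of all genes. The median change was -0.03 (log2) for the ABC genes and -0.02 for all genes, and the median size of a change was 0.18 and 0.14. Only ABCG1 and ABCC3 changed by more than 2-fold. The count depends on how the spread is estimated. In 1 fit of all 12 arrays, where the wider spread of the LSD1 experiment enters, 10 of the 34 were called. The share over all genes in that fit was 29.4%. The number that rose was 3 without scramble replicate 1, 4 without scramble replicate 2 and 3 without HDAC5 shRNA replicate 2.

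**Figure D1:**
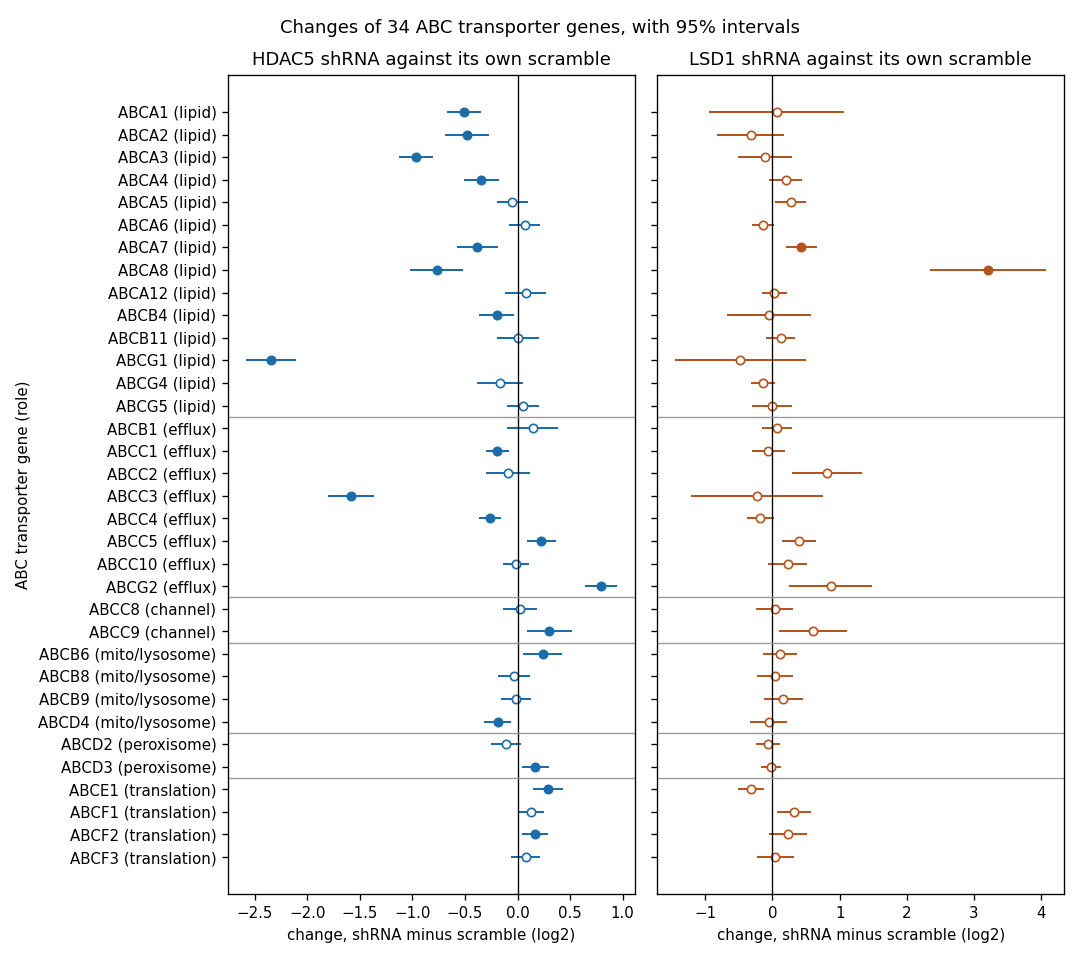
Changes of the 34 ABC genes on the log2 scale, HDAC5 shRNA (left) and LSD1 shRNA (right) against the scramble arrays of the same experiment, with 95% confidence intervals. Filled points were called changed by limma; grey lines part the role groups, and the axes of the panels differ. With HDAC5 shRNA the 8 called lipid transporters all lie left of 0, and with LSD1 shRNA the filled points are ABCA7 and ABCA8.

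Among the 14 lipid transporters, 8 fell (57.1%) and 0 rose with HDAC5 shRNA, against 23.2% and 21.3% of all genes. Their median change was -0.27. ABCG1 passes cholesterol from cells to high-density lipoprotein. It read 6.81, 6.79 and 6.86 (log2) on the scramble arrays and 4.24, 4.68 and 4.50 on the HDAC5 shRNA arrays. The groups were far apart, and the change was -2.35 (95% interval -2.58 to -2.11, 5.08-fold, adjusted p = 7.60e-08). The HDAC5 shRNA values lie near the lower quartile of the arrays (4.59 to 4.65), where ratios are compressed, so the size is not exact. ABCA1, which loads cholesterol and phospholipid onto apolipoprotein A-I, read 7.94, 7.98 and 7.96 with scramble and 7.37, 7.59 and 7.38 with HDAC5 shRNA. The change was -0.51 (interval -0.66 to -0.36, adjusted p = 0.000143) and lay beyond the spread of both groups.

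ABCA3, the phospholipid pump of lung lamellar bodies, read 8.22, 8.21 and 8.08 with scramble and 7.31, 7.14 and 7.16 with HDAC5 shRNA. The change was -0.97 (interval -1.12 to -0.81, adjusted p = 1.59e-06), close to 1.95-fold. For ABCA8, linked to the efflux of cholesterol and sphingomyelin, the scramble arrays gave 6.23, 6.07 and 6.26 and the HDAC5 shRNA arrays 5.25, 5.67 and 5.32, a change of -0.77 (adjusted p = 0.000228). All 3 HDAC5 shRNA arrays were lower for both genes.

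Smaller falls were seen in 4 other lipid transporters. ABCA2, a pump of late endosomes and lysosomes known mainly from brain, went from 6.74, 6.50 and 6.61 to 5.98, 6.20 and 6.23 (change -0.48, adjusted p = 0.00133). ABCA7, which moves phospholipids and is a risk gene for Alzheimer's disease, went from 6.51, 6.51 and 6.59 to 6.29, 5.99 and 6.19 (change -0.38, adjusted p = 0.00339). Again no array of one group reached the other. ABCA4, the retinoid-lipid flippase of photoreceptors, went from 5.11, 5.17 and 5.08 to 4.68, 4.87 and 4.78 (change -0.34, adjusted p = 0.00266). ABCB4, which flips phosphatidylcholine into bile, lay below the lower quartile in both groups, at 4.49, 4.38 and 4.38 against 4.29, 4.14 and 4.22 (change -0.20, adjusted p = 0.0416). The remaining 6 lipid transporters did not pass: ABCA5, ABCA6, ABCA12, the bile salt export pump ABCB11, ABCG4 and the sterol half-transporter ABCG5 had changes between -0.17 and 0.08. Of the ABCA subfamily alone, 6 of 9 fell (66.7%), against 23.2% of all genes.

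Promoters are shown for ABCA3, ABCG2 and ABCA1, the 3 called genes with the largest changes with HDAC5 shRNA among those with an entry. Entries came from the RefSeq table used (GRCh38.p14, 300 bases around the gene's start, 5′ to 3′ on the gene's strand). ABCA7 is added as the called gene with an entry that had the largest change with LSD1 shRNA. ABCG1, ABCC3, ABCA8, ABCA4, ABCB4, ABCC1 and ABCC8 had no entry. Capitals mark matches to 6 short motifs, searched on both strands. They were the TATA box, spelled TATAAA, and the CCAAT box; the GC box, which Sp factors bind, with the letters GGGCGG; the E-box in its form CACGTG; the AP-1 site as TGANTCA; and the core of the antioxidant response element, TGACNNNGC. The last 2 share their first 3 letters and can overlap.
ABCA3 (chr16:2340679-2340978, minus strand): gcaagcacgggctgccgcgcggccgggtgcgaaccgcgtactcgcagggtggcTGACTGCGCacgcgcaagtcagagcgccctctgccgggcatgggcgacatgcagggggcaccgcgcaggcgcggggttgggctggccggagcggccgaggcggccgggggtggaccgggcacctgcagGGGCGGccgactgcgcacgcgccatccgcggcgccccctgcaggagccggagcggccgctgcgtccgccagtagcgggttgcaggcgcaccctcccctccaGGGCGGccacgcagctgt
ABCA1 (chr9:104928106-104928405, minus strand): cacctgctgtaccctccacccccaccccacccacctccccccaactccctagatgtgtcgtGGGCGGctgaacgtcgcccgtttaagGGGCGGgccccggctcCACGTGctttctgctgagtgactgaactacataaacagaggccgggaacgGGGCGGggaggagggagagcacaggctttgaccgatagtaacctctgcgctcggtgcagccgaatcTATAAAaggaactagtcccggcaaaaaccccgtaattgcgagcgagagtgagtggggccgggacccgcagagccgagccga
ABCA7 (chr19:1039857-1040156, plus strand): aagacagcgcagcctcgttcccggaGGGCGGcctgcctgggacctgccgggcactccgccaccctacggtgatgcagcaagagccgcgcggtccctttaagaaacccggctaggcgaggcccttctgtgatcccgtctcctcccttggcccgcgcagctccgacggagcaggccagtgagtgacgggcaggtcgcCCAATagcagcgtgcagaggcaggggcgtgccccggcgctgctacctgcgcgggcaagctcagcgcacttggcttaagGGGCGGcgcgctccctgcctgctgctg
ABCG2 (chr4:88231577-88231876, minus strand): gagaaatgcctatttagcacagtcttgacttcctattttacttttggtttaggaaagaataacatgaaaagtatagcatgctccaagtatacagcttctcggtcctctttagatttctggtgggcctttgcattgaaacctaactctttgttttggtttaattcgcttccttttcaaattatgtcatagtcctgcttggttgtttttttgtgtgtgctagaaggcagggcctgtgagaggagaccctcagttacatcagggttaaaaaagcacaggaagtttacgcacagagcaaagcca
The 3 promoters shown of genes that fell with HDAC5 shRNA each hold a GC box. ABCA3 holds it at -69 and 33 relative to the start, ABCA1 at -189, -163 and -97, and ABCA7 at -225 and 24. ABCA1 also holds a TATA box at -31 and an E-box at -147, ABCA7 a CCAAT box at -55, and ABCA3 an antioxidant response element core at -197. The ABCG2 window held no match and was poorer in G and C, at 40.3% with 3 CpG dinucleotides, against 78.0% with 42 in ABCA3, 70.0% with 29 in ABCA7 and 62.7% with 23 in ABCA1. Only a single window per gene was read, so these values do not describe promoters at any other start site of ABCG2. A GC box is common: it is in 17 of the 27 member promoters with an entry and in 45.0% of 35116 promoters. It did not part the genes that fell from those that rose. Of the others that fell, ABCD4 holds one and ABCA2 and ABCC4 do not. Of the others that rose, ABCC5, ABCC9, ABCB6, ABCD3 and ABCF2 hold one and ABCE1 does not. The other shares over all promoters were 11.5% for TATAAA (3 of 27 members), 34.6% for CCAAT (6 of 27), 7.26% for CACGTG (3 of 27), 7.71% for TGANTCA (2 of 27) and 13.3% for TGACNNNGC (7 of 27). A match describes letters in this window and says nothing about binding.

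**Figure D2:**
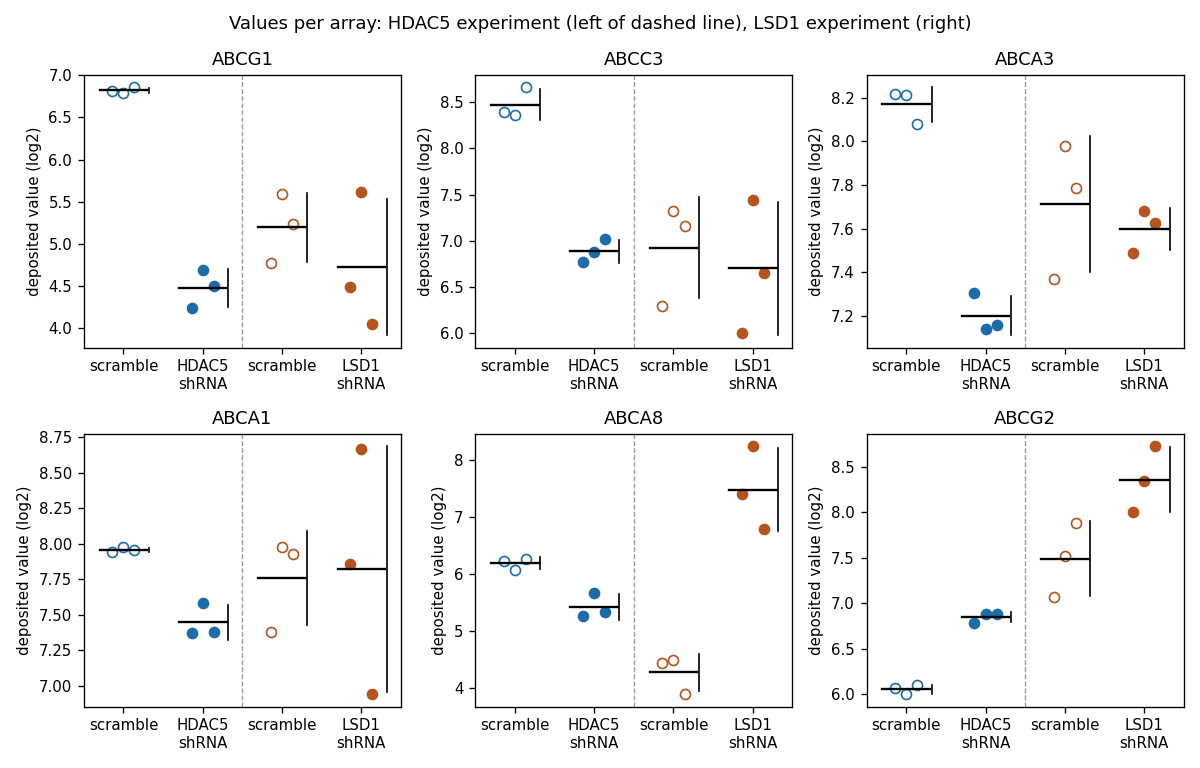
Deposited log2 values of ABCG1, ABCC3, ABCA3, ABCA1, ABCA8 and ABCG2 on each array, HDAC5 experiment left of the dashed line and LSD1 experiment right of it, with open points for scramble and filled points for shRNA; horizontal bars are means and vertical bars SDs (n = 3). The y axes differ and do not start at 0. The HDAC5 experiment groups do not overlap in any of the 6 panels, while in the LSD1 experiment the groups are apart for ABCA8 and ABCG2 and overlap for the other 4.

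Of the 8 efflux pumps, 3 fell (37.5%) and 2 rose (25%) with HDAC5 shRNA, against 23.2% and 21.3% of all genes. ABCC3, which exports glucuronides and bile salts, read 8.39, 8.36 and 8.66 with scramble and 6.77, 6.88 and 7.02 with HDAC5 shRNA. The change was -1.58 (interval -1.79 to -1.37, 2.99-fold, adjusted p = 4.84e-07), the second largest among the ABC genes. ABCC4, a pump for cyclic nucleotides and prostaglandins, was among the least variable members, at 9.47, 9.48 and 9.48 against 9.21, 9.26 and 9.18, and fell by 0.26 (adjusted p = 0.000623). ABCC1, which exports glutathione conjugates and leukotriene C4, went from 9.83, 9.89 and 9.80 to 9.69, 9.66 and 9.60 (change -0.19, adjusted p = 0.00507).

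ABCG2, the breast cancer resistance protein, rose. It read 6.07, 6.004 and 6.10 with scramble and 6.79, 6.89 and 6.88 with HDAC5 shRNA, a change of 0.79 (interval 0.65 to 0.94, 1.73-fold, adjusted p = 4.25e-06). No other ABC gene rose by more. ABCC5, another exporter of cyclic nucleotides, read 8.42, 8.41 and 8.55 against 8.74, 8.66 and 8.67 and rose by 0.23 (adjusted p = 0.00704). The other 3 pumps did not pass. ABCB1, or P-glycoprotein, lay between 2.97 and 3.46 in all 6 arrays, below the lower quartile, with a change of 0.14 (adjusted p = 0.315). ABCC2, also below the lower quartile, had a change of -0.09, and ABCC10 had one of -0.02.

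In the other roles the changes were small. ABCC9, a sulphonylurea receptor of ATP-sensitive potassium channels, rose by 0.30 from values below the lower quartile (4.23, 4.07 and 4.40 against 4.63, 4.53 and 4.45; adjusted p = 0.0201), and ABCC8, the other such receptor, had a change of 0.02. ABCB6, a porphyrin transporter, rose by 0.24 (6.92, 7.01 and 7.02 against 7.06, 7.28 and 7.33; adjusted p = 0.0334). ABCD4, which takes part in moving cobalamin out of lysosomes, fell by 0.19 (8.85, 8.85 and 8.75 against 8.57, 8.64 and 8.67; adjusted p = 0.0138). These groups come close to each other without overlapping. The mitochondrial transporter ABCB8 and the lysosomal peptide transporter ABCB9 had changes of -0.03 and -0.02 and did not pass. Of the peroxisomal fatty acid transporters, ABCD3 rose by 0.17 (11.31, 11.27 and 11.42 against 11.47, 11.61 and 11.43; adjusted p = 0.0266) and the dim ABCD2 had a change of -0.11.

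Among the translation factors ABCE1 rose, and ABCF2 passed on the probe set that stands for it. ABCE1, which splits ribosomes after termination, read 10.39, 10.31 and 10.50 with scramble and 10.61, 10.80 and 10.66 with HDAC5 shRNA (change 0.29, adjusted p = 0.00290). ABCF2 read 9.41, 9.45 and 9.29 against 9.51, 9.60 and 9.54 (change 0.17, adjusted p = 0.0262). Not all of its further probe sets shared this direction, and the call was lost with quantile normalization (adjusted p = 0.0551 over 12 arrays and 0.0532 over 6) and with the replicate block (0.0550). ABCF1, which binds the initiation factor eIF2, also had groups that did not overlap (10.36, 10.35 and 10.22 against 10.40, 10.40 and 10.51), but its change of 0.13 missed the threshold (adjusted p = 0.0669). ABCF3 had a change of 0.08. The small calls were the least stable: those of ABCB4, ABCC9, ABCB6, ABCD4, ABCD3 and ABCF2 were each lost when single arrays were left out. Scramble replicate 1 alone was enough for each of the 6, giving adjusted p = 0.133, 0.0685, 0.130, 0.0595, 0.107 and 0.0603 in that order. The calls of the other 13 genes held without any 1 array.

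**Figure D3:**
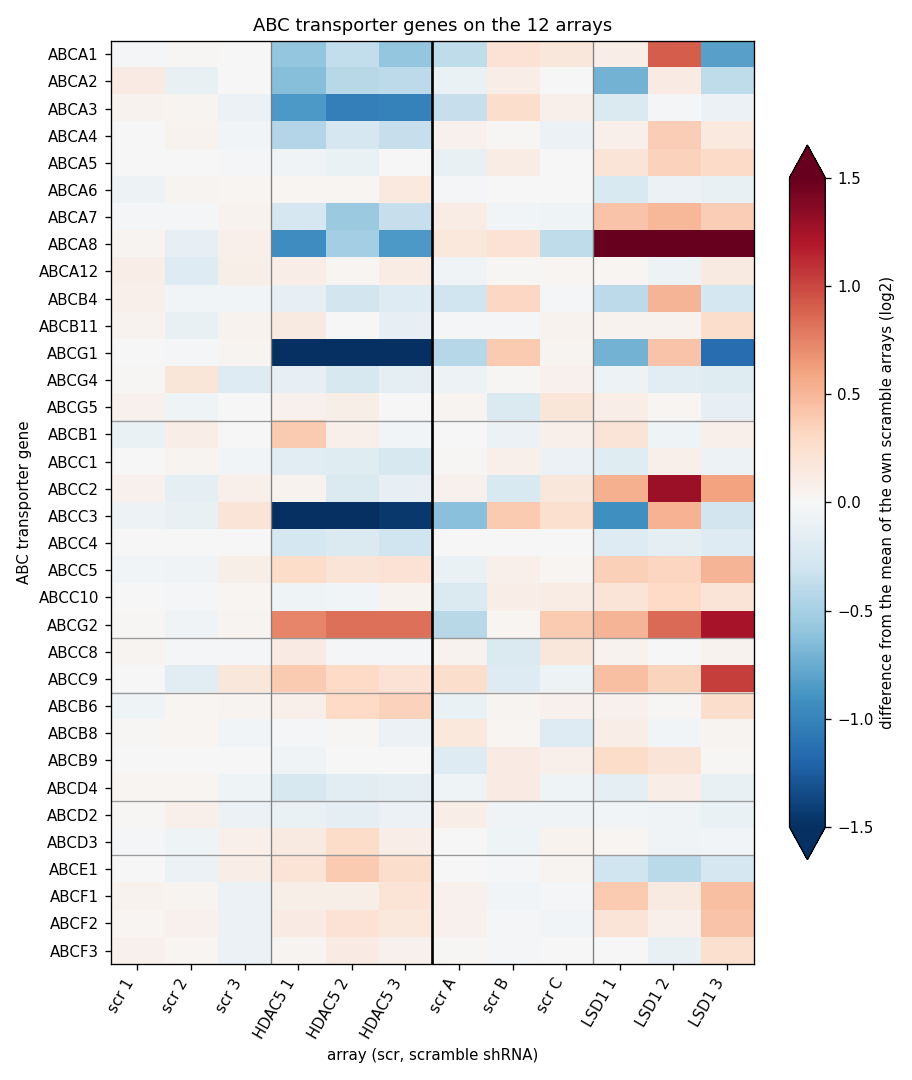
Difference of each array from the mean of its own scramble arrays (log2, colour scale limited to -1.5 and 1.5) for the 34 ABC genes in rows, parted by role in the order lipid, efflux, channel, mitochondrial or lysosomal, peroxisomal and translation, and the 12 arrays in columns; the thick line parts the experiments and scr is scramble. The HDAC5 shRNA arrays of ABCG1, ABCC3 and ABCA3 all lie below scramble, and the LSD1 shRNA arrays differ among themselves for ABCA1, ABCG1 and ABCC3.

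The further probe sets were read in a fit over all 22215 probe sets. Of the 19 genes called with HDAC5 shRNA, 10 had 16 further probe sets, of which 6 passed with the same sign, 6 had the same sign and did not pass, 1 passed with the opposite sign and 3 had the opposite sign and did not pass. The large falls were seen on both probe sets of their genes: ABCG1 also fell by 1.41 (6.16 to 4.75) and ABCC3 fell by 1.34 (7.47 to 6.13). ABCE1 rose by 0.29 on both of its probe sets. For ABCA1 a further probe set fell by 0.24 (adjusted p = 0.0368) and a dim one had a change of 0.00, and the mean over the 3 gave -0.25 (adjusted p = 0.00283). The probe sets of ABCA2 disagreed in size, at -0.48, -0.17 and 0.02, of which the first passed, and the mean over them gave -0.21. ABCF2 had the widest disagreement. Its further probe sets had changes of 0.75 and 0.44, which passed, of 0.06, which did not, and of -1.94 (6.61 to 4.68, adjusted p = 3.13e-05), so the mean over its probe sets was -0.11 and no direction can be given for the gene as a whole. The mean over probe sets also ended the calls of ABCC9 (change 0.07, adjusted p = 0.463), of which 1 further probe set had a change of -0.16, ABCB6 (0.12, adjusted p = 0.215) and ABCD4 (-0.12, adjusted p = 0.1001). With these means 4 ABC genes rose in place of 7. ABCA3, ABCA4, ABCA7, ABCA8, ABCB4, ABCC4, ABCC5, ABCG2 and ABCD3 had 1 probe set each.

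**Figure D4:**
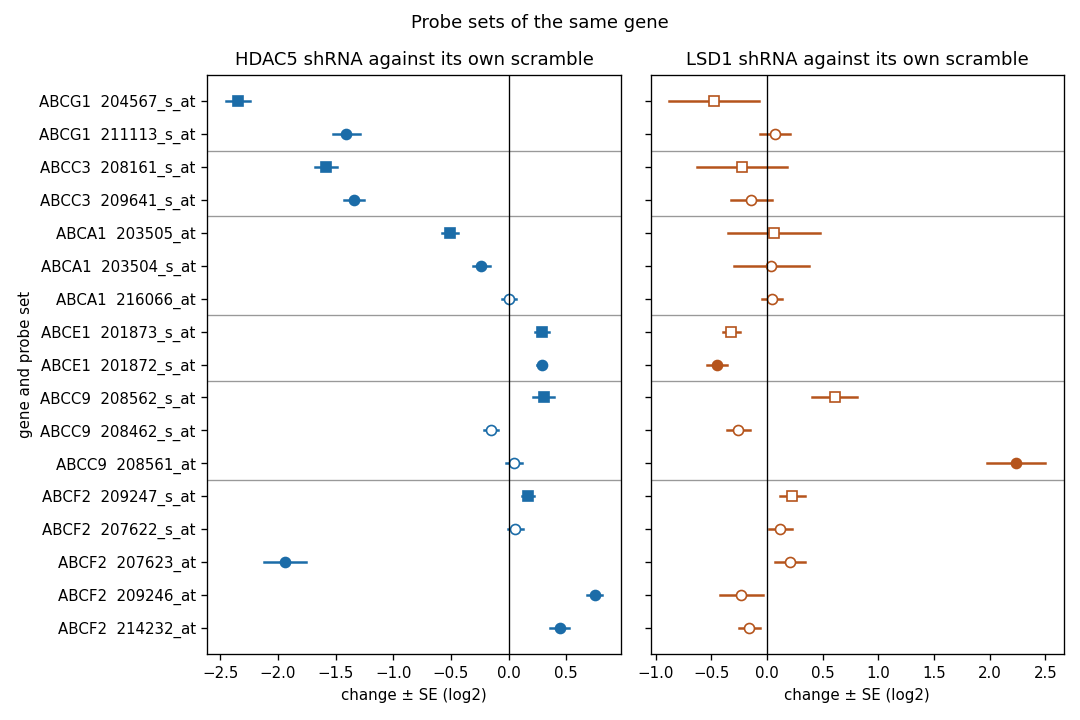
Changes of each probe set (log2, ± SE) for 6 of the genes whose further probe sets the text discusses, HDAC5 shRNA (left) and LSD1 shRNA (right). ABCA2, ABCB6 and ABCD4 are not plotted. Squares are the probe set that stands for the gene, circles the further ones, and filled symbols passed at an adjusted p under 0.05. Both probe sets of ABCG1, ABCC3 and ABCE1 lie on the same side with HDAC5 shRNA, whereas those of ABCF2 lie on both sides, and 1 of the 3 of ABCC9 lies at 2.24 with LSD1 shRNA.

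The genes that work with the transporters were read from lists by function. Over all genes 21.3% rose and 23.2% fell with HDAC5 shRNA, and no list was tested as a set. Of 19 genes of cholesterol handling and the LXR axis, 4 rose and 8 fell with HDAC5 shRNA (median change -0.13). LPCAT3, which remodels membrane phospholipids, rose by 0.72 (6.94 to 7.65). NPC1, the lysosomal cholesterol exporter, fell by 0.66 (10.88 to 10.22), and SOAT1, which esterifies cholesterol for storage, rose by 0.54 (8.88 to 9.41). Chosen after their values were seen because they belong to the LXR axis itself, NR1H3, which encodes LXR alpha, had a change of -0.34 (adjusted p = 0.00693), its partner RXRA one of -0.22 (adjusted p = 0.00426) and the LXR target MYLIP one of -0.46 (adjusted p = 0.000173). RXRB, on the same list, had a change of -0.13 and did not pass (adjusted p = 0.1097 in limma). NR1H2, also on the list, was not among the genes measured. Of the other LXR targets read, LPCAT3 rose as given above and SREBF1 fell by 0.20 (adjusted p = 0.0253), while APOE (-0.14, adjusted p = 0.145), PLTP (-0.04, adjusted p = 0.670) and ABCG5 (0.05, adjusted p = 0.559) did not pass.

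Of 20 xenobiotic regulators and glutathione genes, 5 rose (25%) and 6 fell (30%), near the 21.3% and 23.2% of all genes. Among them NQO1, a quinone reductase, was up by 0.81, KEAP1, which restrains the factor NRF2, up by 0.63, and MVP, the major vault protein, at -0.64. The 22 peroxisome genes had 4 that rose and 11 that fell (median -0.13), among them ECH1 at -0.84, ACSL1 at -0.71 and PEX11A at -0.67, while the peroxisomal transporter ABCD3 rose. Among 25 partners in ribosome recycling, termination and initiation, 11 rose and 5 fell, with EIF5 at 0.64, EIF2S1 at 0.62 and EIF2B3 at 0.59. Of 15 mitochondrial iron and haem genes 6 rose and 5 fell (SLC25A37 -0.74, PPOX -0.66, GLRX2 0.49), and of 7 cobalamin genes 3 rose and 3 fell (LMBRD1 -0.64, MMACHC 0.58, CD320 0.54). LMBRD1, which works with ABCD4 at the lysosome, fell as ABCD4 did. Of the 4 bile and phospholipid partners CDS2 rose by 0.51, and of the potassium channel partners of ABCC9, KCNJ8, the 1 measured, rose by 0.33. TAP2 rose by 0.39 and TAP1 fell by 0.37; these 2 ABC proteins load peptides for antigen presentation and lie outside the symbol rule.

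With LSD1 shRNA, ABCA8 rose strongly and ABCA7 rose slightly, and 0 ABC genes fell. These 2 of 34 are 5.88%, against 4.92% of all genes called changed, 2.93% that rose and 2.00% that fell. At an unadjusted p under 0.05 there were 9 of 34, against 2629 of all 11963 genes. Scramble and LSD1 shRNA arrays were fully apart in 14 of the 34 (41.2%), against 27.0% of all genes, and the median change was 0.04 and 0.01. The count of 2 was 4 when probe sets of a gene were averaged, 10 in 1 fit of all 12 arrays and 8 with array weights. The shares called over all genes with these settings were 4.87%, 19.2% and 17.2% in that order.

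ABCA8 was at 4.43, 4.49 and 3.89 with scramble (A to C) and at 7.40, 8.24 and 6.79 with LSD1 shRNA. All 3 LSD1 shRNA arrays were above every scramble array by more than 2 log2 units. The change was 3.21 (interval 2.35 to 4.06, 9.24-fold, adjusted p = 0.00685). The scramble values lie below the lower quartile (5.18 to 5.23), so the size is not exact. The rise was called in all 15 alternatives, with changes of 2.83 to 3.55 and adjusted p up to 0.0486. ABCA8 has 1 probe set, so no second one bears on it. Its neighbours in the cluster on chromosome 17, in the order ABCA8, ABCA9, ABCA6, ABCA10 and ABCA5, include 2 measured genes: ABCA6 lay below the lower quartile with a change of -0.14 (adjusted p = 0.265), and ABCA5 read 6.72, 6.94 and 6.84 against 7.03, 7.18 and 7.12 (change 0.27, adjusted p = 0.145). Neither passed.

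ABCA7 read 7.67, 7.52 and 7.49 with scramble and 7.98, 8.05 and 7.93 with LSD1 shRNA. The groups were apart, and the change was 0.43 (interval 0.22 to 0.65, adjusted p = 0.0472). This call is marginal: it was lost without any 1 of the 6 arrays (adjusted p = 0.0634 without LSD1 shRNA replicate 2, up to 0.190 without scramble replicate C) and with quantile normalization (0.0571 over 12 arrays and 0.0549 over 6). The change lay between 0.38 and 0.49 throughout.

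The efflux pumps had wide groups in this experiment. ABCG2 read 7.07, 7.52 and 7.89 with scramble and 8.01, 8.34 and 8.73 with LSD1 shRNA. The groups met end to end without overlapping, and the change of 0.87 (interval 0.27 to 1.47) did not pass (adjusted p = 0.107). ABCC2, which exports bilirubin glucuronides into bile, read 5.23, 4.93 and 5.32 against 5.69, 6.44 and 5.77 (change 0.81, adjusted p = 0.0849), and ABCC5 read 8.04, 8.22 and 8.18 against 8.51, 8.47 and 8.66 (change 0.40, adjusted p = 0.0723). Neither group pair overlapped. ABCC4 stood at 9.60, 9.60 and 9.62 against 9.42, 9.46 and 9.41, with the lowest spread of the pumps, and its change of -0.18 had an adjusted p of 0.250. ABCB1 lay between 3.31 and 3.60 in all 6 arrays, below the lower quartile.

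The channel regulator ABCC9 read 4.95, 4.49 and 4.61 against 5.14, 5.01 and 5.72 (change 0.61, adjusted p = 0.150). A further probe set of ABCC9 rose by 2.24 (2.71 to 4.94, adjusted p = 0.00968), with values below the lower quartile in both groups; another had a change of -0.26, so the 3 did not share a direction. The translation factors went different ways without passing: ABCE1 read 10.91, 10.89 and 10.96 against 10.62, 10.51 and 10.67 (change -0.32, adjusted p = 0.0644), and ABCF1 10.69, 10.58 and 10.59 against 11.01, 10.76 and 11.06 (change 0.33, adjusted p = 0.121). The further probe set of ABCE1 passed, with a fall of 0.45 (adjusted p = 0.0442). ABCF1 passed without LSD1 shRNA replicate 2 (change 0.42, adjusted p = 0.0294). ABCF2 had a change of 0.23, and ABCF3 one of 0.04. The mitochondrial, lysosomal and peroxisomal members had changes between -0.06 and 0.16, none of which passed.

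ABCA1, ABCG1 and ABCC3, which fell with HDAC5 shRNA, could not be resolved with LSD1 shRNA because their replicates disagreed. ABCA1 read 7.38, 7.98 and 7.93 with scramble and 7.86, 8.67 and 6.94 with LSD1 shRNA. ABCG1 read 4.77, 5.59 and 5.24 against 4.49, 5.62 and 4.06, and ABCC3 6.30, 7.32 and 7.16 against 6.004, 7.45 and 6.66. For each of the 3 genes LSD1 shRNA replicate 2 was the highest of its group and scramble replicate A the lowest of its group. The SD over the LSD1 shRNA arrays lay at the 99.5th percentile of all genes for ABCA1, the 99.3rd for ABCG1 and the 99.0th for ABCC3 and ABCA8. The HDAC5 shRNA arrays were also spread for some of these, at the 98.0th percentile of that group for ABCG1 and ABCA8, while ABCC3 lay at the 83.6th and ABCA1 at the 81.7th. Without LSD1 shRNA replicate 2 the changes were -0.36 for ABCA1, -0.92 for ABCG1 and -0.60 for ABCC3, none of which passed (adjusted p = 0.543, 0.0921 and 0.357), and with all arrays they were 0.06, -0.47 and -0.23. Over all 34 genes LSD1 shRNA replicate 2 was the highest of its group for 16 and the lowest for 12, and scramble replicate A was the highest for 8 and the lowest for 17. Without scramble replicate B and LSD1 shRNA replicate 2, which were left out together after the data were seen, ABCA8 still passed (change 2.94, adjusted p = 0.0413) and ABCA7 did not (change 0.38, adjusted p = 0.169).

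In the partner lists 3 genes passed with LSD1 shRNA, each from another list. In the order below they are 5%, 6.67% and 4.55% of their lists, against 4.92% of all genes. GSS, the glutathione synthetase, rose by 0.47 among 20 xenobiotic and glutathione genes, and FDX1, a mitochondrial ferredoxin, rose by 0.50 among 15 iron and haem genes. ACOX3, a peroxisomal acyl-CoA oxidase, fell by 0.94 among 22 peroxisome genes. Of the 19 genes of cholesterol handling and the LXR axis 0 passed in limma, and 2 had an unadjusted p under 0.05. Of the 25 translation partners 0 passed, and 5 had an unadjusted p under 0.05.

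The changes with the 2 shRNAs, which share no arrays, were then tested against each other in 1 fit of all 12 arrays. They differed for 9 of the 34 ABC genes, against 31.8% of all genes. ABCA8 differed most: it fell by 0.77 with HDAC5 shRNA and rose by 3.21 with LSD1 shRNA (difference -3.98, interval -4.86 to -3.09, adjusted p = 4.58e-05). ABCA7 also passed in opposite directions, at -0.38 and 0.43 (difference -0.82, adjusted p = 0.000481). ABCE1 rose by 0.29 with HDAC5 shRNA and had a change of -0.32 with LSD1 shRNA (difference 0.61, adjusted p = 0.000775). The falls of ABCG1 (difference -1.87, adjusted p = 0.00758), ABCA3 (-0.85, adjusted p = 0.00412) and ABCA4 (-0.54, adjusted p = 0.00471) with HDAC5 shRNA were larger than their changes with LSD1 shRNA, and ABCC2 differed through its higher values with LSD1 shRNA (-0.90, adjusted p = 0.0152). ABCC3 (-1.36, adjusted p = 0.0370) and ABCA5 (-0.32, adjusted p = 0.0336) also passed but lost the call in 10 and 9 of 16 alternatives, among them every one that left out a scramble array of the HDAC5 experiment, with adjusted p up to 0.0851 and 0.0790.

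For ABCG2 the changes were alike in size, 0.79 with HDAC5 shRNA and 0.87 with LSD1 shRNA. Their difference was -0.07 with an interval from -0.67 to 0.52, which is too wide to show that they are equal. The 2 changes had the same sign for 21 of 34 ABC genes (61.8%), against 43.3% of all genes. In 10 of the 34 (29.4%) the groups did not overlap in either experiment, against 16.6% of all genes. Of these, 6 moved in the same direction: ABCG2, ABCC5, ABCF1 and, on the probe sets used, ABCC9 and ABCF2 had higher values with both shRNAs and ABCC4 lower values. ABCA4, ABCA7, ABCA8 and ABCE1 lay in opposite directions. Over all genes, 660 of the 1991 with no overlap in either experiment moved in the same direction, so opposite directions were the more common there.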

How the data were processed

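RNA of 12 MDA-MB-231 samples was measured on 22277 probe sets. The deposited values are log2 expression made with RMA in the affy package, per the submitters' processing notes; the sources used here give no versions and do not say whether both experiments were processed jointly. RMA evens out array distributions and compresses ratios at low signal. After 62 control probe sets were left out, 19064 had 1 symbol, 1043 several and 2108 none; symbols were updated through gene IDs to RefSeq names (19052 matched, 12 kept). Each shRNA was compared with its own scramble arrays (6 arrays) in limma 3.58.1 under R 4.3.3 (lmFit, eBayes with a trend), with Benjamini-Hochberg adjustment over 11963 genes and a threshold of 0.05. Scripts were tested on simulated data. SEs and 95% intervals are limma's. The number of arrays limits the precision.

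The members and gene lists were chosen with earlier results of these data known. Members were named with values when called or when a change reached 0.5; from each partner list up to 3 called genes with the largest change were named. Alternatives were other probe set choices, a filter on dim genes, quantile normalization, 1 fit of 12 arrays, no trend, array weights, arrays left out and a replicate block.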

Additional observations from a re-analysis of the deposited data

Results flagged for a closer look

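The changes with HDAC5 and LSD1 shRNA differed for 9 ABC genes in the limma test of the difference itself. As the change with HDAC5 shRNA minus that with LSD1 shRNA on the log2 scale, the differences were -0.85 for ABCA3, -0.54 for ABCA4, -0.32 for ABCA5, -0.82 for ABCA7, -3.98 for ABCA8 and -1.87 for ABCG1 among the lipid transporters. They were -0.90 for ABCC2 and -1.36 for ABCC3 among the efflux pumps, and 0.61 for ABCE1. ABCE1 was the 1 gene of the 9 whose change was higher with HDAC5 shRNA. In ABCA7, ABCA8, ABCA4 and ABCE1 the 3 arrays of each shRNA lay beyond all 3 of their scramble arrays, on opposite sides in the 2 experiments. Opposite sides were also the more common over all genes, where 660 of the 1991 apart in both experiments moved in the same direction. Experiment and scramble set change together with the target, so they cannot be told apart from it. Groups of 3 are too small for a test of single outlying samples.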

How the results depend on the processing

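Of the 34 ABC genes, 19 were called with HDAC5 shRNA, and 10 in 1 fit of 12 arrays, which lost ABCA1, ABCA2, ABCA8, ABCB4, ABCC1, ABCC9, ABCB6, ABCD4 and ABCF2. The count was 15 to 19 with the other alternatives that kept all arrays and 13 to 17 with 1 array left out. Over all genes 29.4% were called in 1 fit of 12 arrays. The share was 40.7% to 55.2% with those other alternatives and 38.1% to 42.2% with 1 array left out. The 55.2% came with dim genes left out, where 26 ABC genes were tested. The labels do not say whether scramble and HDAC5 shRNA arrays with the same replicate number are pairs. The deviations of same-numbered arrays correlated at -0.05, -0.21 and -0.15. These values cannot settle it, because deviations from the mean of 3 arrays constrain one another. A fit with the replicate block called 17. No paired analysis was possible in the LSD1 experiment because its scramble replicates are lettered. The change of ABCF2 turned from 0.17 to -0.11 when probe sets of a gene were averaged. With LSD1 shRNA the count of 2 became 4 with averaged probe sets, 10 in 1 fit of 12 arrays, 8 with array weights, 1 with quantile normalization over 12 arrays and 1 over 6, and 1 to 2 with 1 array left out. It was 1 without scramble B and LSD1 shRNA 2 together, chosen after seeing the data. The rise of ABCA8 was called in each of these. Over all genes the share called was 4.87% with averaged probe sets, 19.2% in 1 fit of 12 arrays and 17.2% with array weights. It was 5.24% and 5.32% with quantile normalization and 0.869% to 6.57% with 1 array left out. The count of 9 genes whose changes differ was 8 to 10 with all arrays and 7 to 9 with 1 array left out, which was also chosen after seeing the data. Signal near the lower quartile limits the size of the ABCG1 and ABCA8 changes.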

Other observations

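Levels of the 2 scramble sets can be set side by side only after quantile normalization over all 12 arrays, which leaves differences of single genes between experiments in place; experiment and scramble set cannot be told apart. On that scale ABCG1 was at 7.03 ± 0.03 (log2, mean ± SD, n = 3) with the scramble of the HDAC5 experiment, 4.78 ± 0.26 with HDAC5 shRNA, 4.92 ± 0.42 with scramble in the LSD1 experiment and, there, 4.43 ± 0.78 with LSD1 shRNA. The scramble sets lay nearly as far apart as HDAC5 shRNA lay from its own control. ABCC3 was at 8.64 ± 0.17, 7.11 ± 0.09, 6.69 ± 0.57 and 6.41 ± 0.74 in the same order, and ABCA3 at 8.35 ± 0.07, 7.41 ± 0.11, 7.51 ± 0.29 and 7.38 ± 0.07. For ABCG2 the values were 6.31 ± 0.04, 7.08 ± 0.03, 7.29 ± 0.42 and 8.17 ± 0.37. ABCA1 was at 8.14 ± 0.0080, 7.65 ± 0.12, 7.56 ± 0.32 and 7.62 ± 0.88, and ABCA8 at 6.43 ± 0.10, 5.72 ± 0.23, 4.04 ± 0.30 and 7.25 ± 0.73, with LSD1 shRNA the highest of its 4 groups. In each of these 6 genes, which are those plotted by array, the scramble of the LSD1 experiment lay nearer to HDAC5 shRNA than to the other scramble set. The 6 were picked for display, and the share over all genes was not taken. ABCA2, ABCA7, ABCC1, ABCC5, ABCC9, ABCD4 and ABCF2, also called with HDAC5 shRNA, went the other way. The HDAC5 experiment's scramble, HDAC5 shRNA and the LSD1 experiment's scramble were at 6.83, 6.42 and 7.09 for ABCA2. For ABCA7 they were at 6.76, 6.44 and 7.36, and for ABCC1 at 10.02, 9.79 and 10.16. For ABCC5 they were at 8.63, 8.85 and 7.96, and for ABCC9 at 4.51, 4.85 and 4.42. ABCD4 was at 8.99, 8.79 and 8.99 and ABCF2 at 9.56, 9.69 and 9.07 in the same order.

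The pseudogene ABCA11P, which lies outside the symbol rule, rose by 0.26 with HDAC5 shRNA (adjusted p = 0.0140 in limma over all probe sets) and had a change of -0.39 with LSD1 shRNA (adjusted p = 0.419). A probe set shared by ABCB4 and ABCB1 had changes of -0.02 and 0.02, and one shared by ABCB8 and ASIC3 changes of -0.11 and -0.19; none of these passed.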
